A study of Homo sapiens and Mus musculus with 12 samples.

Results

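The FOXO transcription factors (3 genes) and 7 genes known as their targets were followed in MDA-MB-231, a human triple-negative breast cancer cell line, and in 4T1, a mouse mammary carcinoma cell line. The 10 genes are *FOXO1*, *FOXO3*, *FOXO4*, *PIK3IP1*, *IRS2*, *INSR*, *CCNG2*, *SESN1*, *SESN3* and *TXNIP*, taken by symbol from 63677 human gene identifiers, and the mouse genes of the same symbol, taken from 47729. Wild-type cells of each line, grown in DMEM with fetal bovine serum, were given 1 μM ponatinib, an inhibitor of several tyrosine kinases, or the solvent DMSO for 24 h. Gene counts from RNA-seq were analysed in 3 libraries per group, 12 in all. No label says whether the replicates were separate cultures, so the tests measure the spread between these libraries.

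FOXO proteins are forkhead transcription factors that are held in check by PI3K-AKT signaling. Active AKT phosphorylates them, 14-3-3 proteins bind the phosphorylated form, and the pair leaves the nucleus. When insulin or growth factor signaling falls, FOXO proteins return to the nucleus and switch on genes for insulin sensing, growth arrest and stress resistance, so that these transcripts are widely read as a sign of low AKT activity. RNA-seq measures the transcripts and not the phosphorylation or place of the proteins.

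Ponatinib moved these genes differently in the lines. In MDA-MB-231, 6 of the 9 that could be tested rose, none fell and 3 did not pass (adjusted p under 0.05 by edgeR's quasi-likelihood test, adjusted over all genes). Over all 14610 genes tested in that line, 27.2% were called higher and 26.8% lower, 54.0% together. The count of falls was also 0 at an unadjusted p under 0.05 and by DESeq2. The median log2 fold change was 0.96 over the 9 genes and 0.02 over all genes. In 4T1, 3 of 10 rose, 5 fell and 2 did not pass, where 29.5% of 13286 genes were called higher and 29.4% lower (59.0% together), with medians of -0.16 and 0. The count of rises in MDA-MB-231 was 6 under every alternative tried, whereas the counts in 4T1 ran from 1 to 3 rises and from 3 to 5 falls. In every group the library numbered 1 stood apart, with a chi-square per gene of 9.12 to 16.7 against the other libraries of its group, where libraries 2 and 3 had 3.03 to 7.21 between them. With both libraries numbered 1 left out of each line, an alternative added after seeing the data, there were 6 rises and 0 falls in MDA-MB-231 and 1 rise and 5 falls in 4T1.

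Promoter sequence is shown for 4 of these genes, because the forkhead motif GTAAACA is a sequence that FOXO proteins are known to bind or because the gene moved in opposite directions in the lines. The window searched ran from 250 bases before to 50 bases after each start, on both strands, in RefSeq promoters of GRCh38.p14 for human and in windows cut from GRCm39 at the starts of canonical transcripts for mouse. GTAAACA was found in 3 of the 17 human windows of the 10 genes and in 1 of the 10 mouse windows, against 3.42% of 35116 human and 3.15% of 21770 mouse windows of the same length. *TXNIP* and *Txnip*, which encode a thioredoxin-binding arrestin that limits glucose uptake, hold it at a similar place before the start. The 150 bases before each start are given with GTAAACA in capitals, for human chr1:145996580-145996729 (minus strand) and mouse chr3:96465117-96465266 (plus strand).
TXNIP: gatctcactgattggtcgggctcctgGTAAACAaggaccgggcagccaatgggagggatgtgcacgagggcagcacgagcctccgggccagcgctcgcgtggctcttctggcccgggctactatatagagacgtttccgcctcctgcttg
Txnip: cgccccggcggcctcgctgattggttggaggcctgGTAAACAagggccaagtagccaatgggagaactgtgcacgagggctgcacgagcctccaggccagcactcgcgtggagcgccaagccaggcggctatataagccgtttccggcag

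The motif lies at bases -124 to -118 in human and -115 to -109 in mouse, counted from -1 at the base before the start. Human *FOXO4* (bases 24 to 30 after the start) and the second annotated start of human *PIK3IP1* (bases 17 to 23) hold the other human matches. The 30 bases around each are printed with the match in capitals, from chrX:71095863-71095892 (plus strand) and chr22:31292454-31292483 (minus strand, where the match reads TGTTTAC because it lies on the opposite strand). The mouse windows of these genes hold no GTAAACA.
FOXO4: cccggcgagtgGTAAACAgagacgtcagga
PIK3IP1: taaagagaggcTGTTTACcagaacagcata

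*CCNG2* and *Ccng2*, which encode cyclin G2, an unconventional cyclin linked to cell cycle arrest, moved in opposite directions, and their promoters are set side by side for that reason. The human window holds an E-box, CACGTG (a palindrome, the same on both strands), at bases -30 to -25, and E-boxes were found in 7.26% of human and 7.81% of mouse windows. The mouse window holds no E-box and 2 copies of the insulin response motif CAAAACA, at bases -15 to -9 and -1 to 6, and this motif was found in 4.92% of human and 6.71% of mouse windows. The 100 bases before each start are given for chr4:77157107-77157206 and chr5:93415016-93415115, both on the plus strand, with these motifs in capitals, and the last capital of the mouse sequence is the first base of the copy that runs across the start.
CCNG2: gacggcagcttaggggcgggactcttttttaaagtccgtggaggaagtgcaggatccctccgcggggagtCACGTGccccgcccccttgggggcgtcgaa
Ccng2: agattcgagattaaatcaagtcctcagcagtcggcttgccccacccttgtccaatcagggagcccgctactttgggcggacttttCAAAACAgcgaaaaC

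Of the remaining windows, human *IRS2* holds CAAAACA (bases -40 to -34), mouse *Foxo4* holds CAAAACA (bases -245 to -239), and the third human start of *SESN1* holds GTAAATA (bases -68 to -62), a forkhead variant found in 2.67% of human windows. No match overlapped one of another motif. A match describes these letters and does not show that a factor bound there.

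Among the factors themselves in MDA-MB-231, *FOXO1* (ENSG00000150907, chr13:40555667-40666641 of hg38, minus strand), a FOXO factor of wide expression, had 5.57, 6.67 and 5.28 CPM with DMSO and 12.1, 10.5 and 11.5 CPM with ponatinib. CPM is the count of a gene scaled to one common library size with TMM factors. The groups did not overlap, and the level went from 5.84 ± 0.731 to 11.4 ± 0.807 CPM (SD, n = 3 each). The log2 fold change (log2FC) was 0.96 with a standard error (SE) of 0.15 and an adjusted p of 0.000173. All adjusted p-values of single genes are from edgeR, with Benjamini-Hochberg adjustment over every gene tested.

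*FOXO4* (ENSG00000184481, chrX:71095851-71103532), the X-linked member of the family, had 9.15, 6.86 and 8.49 CPM with DMSO and 20.4, 24.1 and 23.5 CPM with ponatinib. Every ponatinib library was above every DMSO library, with a log2FC of 1.47 (SE 0.13, adjusted p = 3.44e-06). *FOXO3* (ENSG00000118689, chr6:108559835-108684774), a factor studied for longevity and cell survival, had 16.1, 22.9 and 24.4 CPM with DMSO and 20.5, 23.0 and 25 CPM with ponatinib. The groups overlapped and the difference did not pass the test, at a log2FC of 0.11 (SE 0.15, adjusted p = 0.55). Without DMSO replicate 1, the lowest library, the value was -0.06 with an adjusted p of 0.681. *FOXO3B*, a near-identical copy of *FOXO3*, held 7 to 27 counts per library against 243 to 456 for *FOXO3*. How reads that fit both were counted is not given in the sources used here.

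The genes upstream of AKT held the rise with the highest fold. *PIK3IP1* (ENSG00000100100, chr22:31281594-31292534) encodes a membrane protein that inhibits PI3K. It had 2.45, 1.81 and 2.33 CPM with DMSO and 16.6, 19.0 and 21.3 CPM with ponatinib, from 28 to 37 counts per library to 263 to 389. This was an 8.61-fold higher level, a log2FC of 3.11 (SE 0.17, adjusted p = 7.4e-08) and the 99.3rd percentile of all genes tested.

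*INSR* (ENSG00000171105, chr19:7112255-7294414), the insulin receptor, had 15, 15.1 and 16.3 CPM with DMSO and 23.5, 22.3 and 24.1 CPM with ponatinib. It rose without overlap, by a log2FC of 0.59 (SE 0.10, adjusted p = 0.000419). *IRS2* (ENSG00000185950, chr13:109752695-109786583), an adaptor that links the insulin receptor to PI3K, had 17.2, 20.7 and 20.9 CPM with DMSO and 21.3, 25.2 and 21.2 CPM with ponatinib. Its groups lay close to each other without overlapping, and its log2FC of 0.20 (SE 0.12, adjusted p = 0.175) did not pass.

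Of the genes for growth arrest and stress, *CCNG2* (ENSG00000138764, chr4:77157207-77433388) had 10.3, 11.7 and 14.0 CPM with DMSO and 31.8, 38.8 and 39 CPM with ponatinib. It was 3.05-fold higher with ponatinib, with no overlap between groups and a log2FC of 1.61 (SE 0.13, adjusted p = 1.57e-06). *SESN3* (ENSG00000149212, chr11:95165513-95232541), a sestrin that restrains mTORC1, had 1.92, 3.11 and 2.71 CPM with DMSO and 11.8, 11.9 and 13 CPM with ponatinib. Its groups lay far apart, 4.73-fold in the mean, with a log2FC of 2.24 (SE 0.18, adjusted p = 1.27e-06). *LNCRNA-IUR*, annotated on the opposite strand over *SESN3*, also had more counts with ponatinib (17 to 18 per library) than with DMSO (4 to 8), and how strand was treated in counting is not given in the sources used here.

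*SESN1* (ENSG00000080546, chr6:108984309-109094846), a sestrin best known as a p53 target, had 3.12, 5.37 and 4.09 CPM with DMSO and 3.60, 4.91 and 4.00 CPM with ponatinib. The groups overlapped fully, the log2FC was -0.01 (SE 0.23, adjusted p = 0.969), and its sign turned under 5 alternatives, with no call in any. The identifier that GENCODE v44 gives *TXNIP* (ENSG00000265972, chr1:145992435-145996579) held 0 counts in all 6 libraries and was not tested. Only 81.9% of the human identifiers, holding 99.3% of the counts, could be named with this annotation, and whether reads of *TXNIP* were counted under an identifier with no name was not tested, so no level of *TXNIP* is given for MDA-MB-231.

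**Figure D1:**
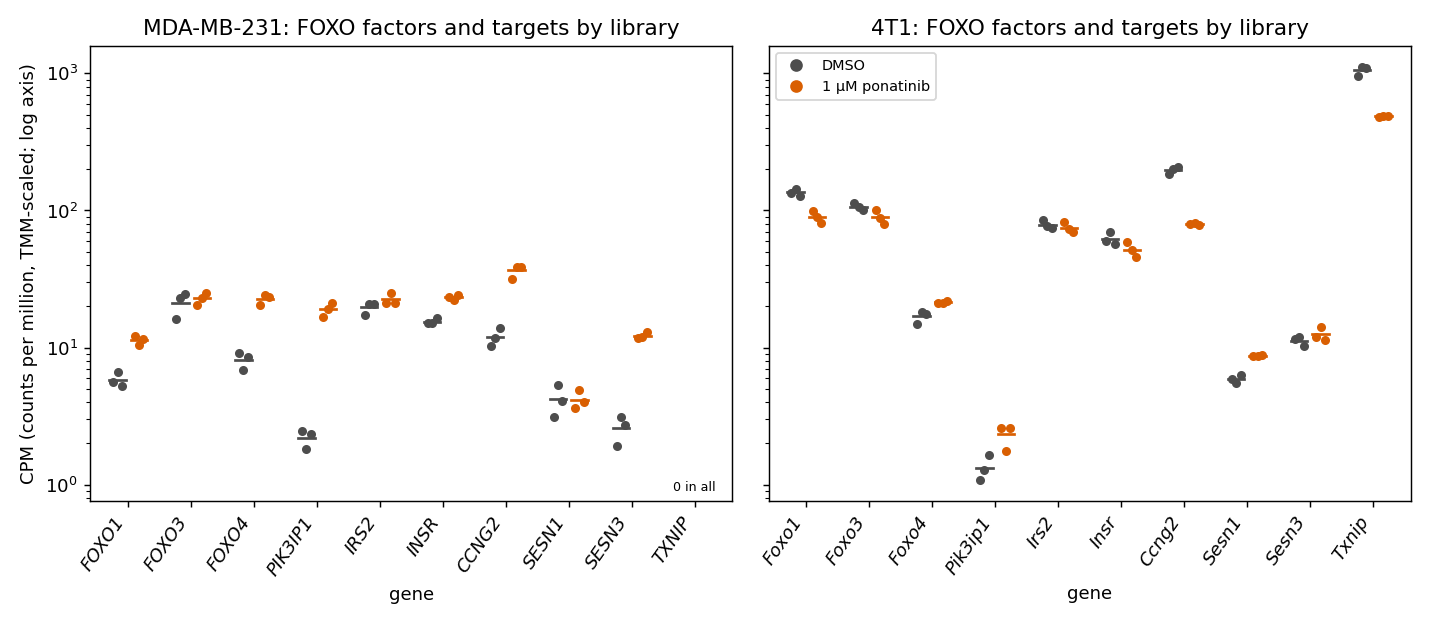
CPM of each gene in every library (points, log axis) with the group mean (bars), for DMSO (grey) and 1 μM ponatinib (orange), 3 libraries each, with MDA-MB-231 in the left panel and 4T1 in the right. In MDA-MB-231 the orange points of *PIK3IP1* (16.6 to 21.3 CPM) and *SESN3* (11.8 to 13 CPM) lie well above the grey ones, while in 4T1 those of *Ccng2* (78.5 to 80.5 CPM) and *Txnip* (481 to 491 CPM) lie below.

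In 4T1, *Foxo1* (ENSMUSG00000044167, chr3:52175757-52260642 of GRCm39) had 135, 144 and 127 CPM with DMSO and 99.8, 89.4 and 80.8 CPM with ponatinib. It fell without overlap, with a log2FC of -0.59 (SE 0.09, adjusted p = 4.29e-05). *Foxo3* (chr10:42057837-42154007) had 113, 106 and 101 CPM with DMSO and 100, 88.2 and 80.0 CPM with ponatinib, a lower level by a narrow gap. Its log2FC of -0.25 (SE 0.09, adjusted p = 0.0224) lost its call with scaling by total counts (-0.13, adjusted p = 0.197), without ponatinib replicate 2 (adjusted p = 0.0674) and without ponatinib replicate 3 (adjusted p = 0.124).

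*Foxo4* (chrX:100298073-100304479) moved the other way, from 14.9, 18.3 and 17.6 CPM with DMSO to 21.3, 21.2 and 21.7 CPM with ponatinib. The groups did not overlap, with a log2FC of 0.34 (SE 0.11, adjusted p = 0.0169), but the call was lost without DMSO replicate 1, the lowest library (0.25, adjusted p = 0.0644), and without both libraries numbered 1 (0.26, adjusted p = 0.0692).

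*Pik3ip1* (chr11:3280401-3292971) was scarce in 4T1, with 19, 23 and 30 counts with DMSO and 51, 34 and 48 with ponatinib. In CPM these were 1.08, 1.28 and 1.64 against 2.61, 1.76 and 2.60, without overlap but with the nearest libraries close to each other. Its log2FC was 0.80 (SE 0.28, adjusted p = 0.0234), and the call was lost when DMSO replicate 1, DMSO replicate 2, ponatinib replicate 1 or ponatinib replicate 3 was left out (adjusted p from 0.0636 to 0.084), or both libraries numbered 1 (0.57, adjusted p = 0.152). *Gm12592*, on the opposite strand, held 1 to 7 counts per library.

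*Insr* (chr8:3172061-3329647) had 59.8, 69.3 and 56.7 CPM with DMSO and 58.7, 51.3 and 45.4 CPM with ponatinib. The groups overlapped although it was called lower, at a log2FC of -0.26 (SE 0.10, adjusted p = 0.0447). The call was lost with total counts (adjusted p = 0.27), with a minimum of 10 counts in every library (0.0578), and without DMSO replicate 2, ponatinib replicate 2 or ponatinib replicate 3 (0.211, 0.101 and 0.209). *Irs2* (chr8:11034681-11059499) went from 79.0 ± 5.63 to 74.9 ± 6.55 CPM (SD, n = 3), and its log2FC of -0.08 (SE 0.09, adjusted p = 0.462) did not pass.

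The falls furthest from 0 in 4T1 were in *Ccng2* and *Txnip*. *Ccng2* (ENSMUSG00000029385, chr5:93415116-93424095) had 184, 199 and 207 CPM with DMSO and 79.3, 80.5 and 78.5 CPM with ponatinib. The ponatinib libraries lay within a narrow range far below the others, with a log2FC of -1.31 (SE 0.07, adjusted p = 2.44e-09), at the 2.91st percentile of all genes tested. *Txnip* (ENSMUSG00000038393, chr3:96465267-96469201) had 962, 1120 and 1090 CPM with DMSO and 481, 491 and 487 CPM with ponatinib. It too fell without overlap, with a log2FC of -1.12 (SE 0.08, adjusted p = 3.04e-08), at the 3.91st percentile. *Gm15441*, antisense to *Txnip*, held 20, 23 and 30 counts with DMSO and 21, 27 and 28 with ponatinib, against 8985 to 20167 counts of *Txnip*.

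Of the sestrins, *Sesn1* was the one that rose in 4T1. It (chr10:41685931-41784423) had 5.90, 5.56 and 6.34 CPM with DMSO and 8.64, 8.63 and 8.89 CPM with ponatinib, a rise without overlap by a log2FC of 0.55 (SE 0.14, adjusted p = 0.00285). *Cep57l1*, a coding gene on the opposite strand that shares exon sequence with *Sesn1*, had 162 to 164 counts with DMSO and 175 to 229 with ponatinib, and its part in the value was not tested. *Sesn3* (chr9:14186363-14244397) had 11.6, 11.9 and 10.2 CPM with DMSO and 11.9, 14.1 and 11.4 CPM with ponatinib, overlapping groups with a log2FC of 0.14 (SE 0.13, adjusted p = 0.36).

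The ponatinib libraries did not overlap the DMSO libraries for 7 of the 9 genes tested in MDA-MB-231 and for 7 of 10 in 4T1, where the same held for 60.4% and 63.4% of all genes tested.

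**Figure D2:**
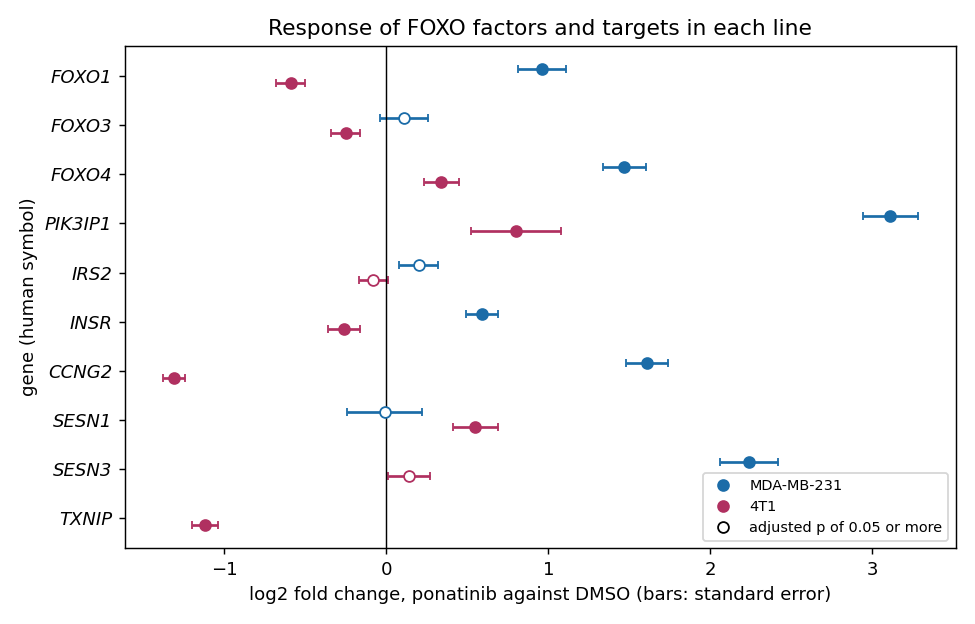
Log2 fold change of ponatinib against DMSO for each gene in MDA-MB-231 (blue) and 4T1 (red), with bars of 1 standard error and hollow points for an adjusted p of 0.05 or more. All points of MDA-MB-231 with a call lie to the right of 0 (0.59 to 3.11), while those of 4T1 lie on both sides (-1.31 to 0.80), and *TXNIP* has a value in 4T1 alone.

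Whether the lines responded differently was asked with an interaction term in a joint edgeR model of all libraries, over 12488 genes with the same symbol in both species. Of the 9 genes with a value in both lines, 6 had a lower response in 4T1 than in MDA-MB-231, none a higher one (also at an unadjusted p under 0.05 and by DESeq2), and 3 did not pass. Over the 9838 genes tested in both lines, 25.5% were called lower in 4T1 and 24.2% higher, 49.6% together. The widest difference was that of *CCNG2*, at -2.99 on the log2 scale (SE 0.15, adjusted p = 1.97e-11), a rise in one line against a fall in the other. *FOXO1* and *INSR* likewise rose in MDA-MB-231 and fell in 4T1, with differences of -1.62 (adjusted p = 1.4e-07) and -0.92 (adjusted p = 6.42e-05).

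*PIK3IP1* and *FOXO4* were called higher in both lines and differed in size, by -2.38 (adjusted p = 7.5e-06, interaction test) and -1.21 (adjusted p = 1.57e-05). Their calls in 4T1 were lost when some single libraries were left out. *SESN3* rose in MDA-MB-231 and did not pass in 4T1, with a difference of -2.17 (adjusted p = 2.37e-07). For *FOXO3* the difference of -0.43 did not pass without a block (adjusted p = 0.0527) and passed with the replicate number as a block (-0.45, adjusted p = 0.0013). It also passed without DMSO replicate 2 (adjusted p = 0.0461), DMSO replicate 3 (0.0213) or ponatinib replicate 1 (0.0233) of MDA-MB-231, without ponatinib replicate 1 of 4T1 (0.0492), and without all 4 libraries numbered 1 (-0.38, adjusted p = 0.0131). *IRS2* had -0.35 in both fits (adjusted p = 0.0639, and 0.0086 with the block) and passed without ponatinib replicate 1 of MDA-MB-231 (-0.38, adjusted p = 0.0479). *SESN1* had a difference of 0.50 (adjusted p = 0.133), which passed only without DMSO replicate 1 of MDA-MB-231 (0.67, adjusted p = 0.0371). These differences come from a joint fit of the shared genes, so they depart slightly from the subtraction of the values of each line. Species and cell line cannot be told apart in this comparison.

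Set in order of CPM per kilobase of exon, so that genes of unlike length can be compared, *FOXO3* led in MDA-MB-231 with DMSO at 2.75 ± 0.575, followed by *IRS2*, *FOXO4*, *CCNG2* and *INSR* at 1.43 ± 0.0671, and neighbours within this stretch overlapped. *FOXO1* came next at 0.981 ± 0.123, then *PIK3IP1* (0.578 ± 0.0892) and *SESN1* (0.576 ± 0.156), which overlapped each other, and *SESN3* was last at 0.244 ± 0.057 (SD, n = 3). With ponatinib the order opened with *FOXO4* at 5.99 ± 0.525, *PIK3IP1* at 4.98 ± 0.619 and *CCNG2* at 4.93 ± 0.553, each overlapping the next, and *FOXO3* (2.98 ± 0.292) came below these. *PIK3IP1* thus moved from place 7 to place 2, and *SESN1* went to the end of the order at 0.573 ± 0.0922.

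In 4T1 the order began with *Txnip* in both groups, at 334 ± 26.7 with DMSO and 154 ± 1.54 with ponatinib in CPM per kilobase. *Ccng2* stood next, at 33.5 ± 1.98 and 13.5 ± 0.174, and did not overlap *Txnip* or the gene after it. With DMSO, *Foxo1* (14.6 ± 0.946) was above *Foxo3* (11.5 ± 0.63), which overlapped *Irs2* (10.7 ± 0.764). With ponatinib *Irs2* (10.2 ± 0.89), *Foxo1* (9.71 ± 1.03) and *Foxo3* (9.70 ± 1.1) overlapped in turn. *Pik3ip1* was last in both groups, at 0.255 ± 0.0546 and 0.445 ± 0.0938 (SD, n = 3). The tables of the lines were scaled apart, so levels are ordered within a line only.

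Paralogs of the 10 genes rose more often than not in MDA-MB-231, where 7 of the 8 tested were called higher and 1 lower, with a median log2FC of 0.52. Over all genes tested in that line, 27.2% were called higher and 26.8% lower. *FOXO6*, a FOXO factor that stays mostly in the nucleus, rose from 6.98 ± 0.628 to 14.7 ± 1.58 CPM (log2FC 1.08, adjusted p = 4.93e-05). *CCNG1*, the p53-inducible cyclin G1, rose from 43.9 ± 2.06 to 74.8 ± 5.09 CPM (0.77, adjusted p = 1.68e-05). The gene that fell was *ARRDC4*, an arrestin related to *TXNIP*, from 11 ± 0.795 to 5.91 ± 0.67 CPM (-0.90, adjusted p = 0.000266).

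In 4T1, 3 paralogs of 8 tested rose, 3 fell and 2 did not pass, with a median of 0.04. All genes tested in 4T1 had 29.5% called higher and 29.4% lower. *Ccng1* rose from 41.2 ± 0.298 to 78.0 ± 2.49 CPM (0.92, adjusted p = 1.3e-07), in the line where *Ccng2* fell. *Irs1*, the sister adaptor of *Irs2*, rose from 19.6 ± 3.76 to 33.0 ± 6.14 CPM (0.75, adjusted p = 0.000573). *Arrdc3*, another arrestin of the *Txnip* family, fell from 66.9 ± 5.22 to 22.0 ± 2.03 CPM (-1.60, adjusted p = 5.41e-09). *Sesn2*, the third sestrin, had a log2FC of -0.18 (adjusted p = 0.0465) and lost this call with total counts, with no filter, with the minimum of 10 counts and without any one library other than ponatinib replicate 3, or both numbered 1 (adjusted p from 0.054 to 0.443).

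A list of 30 other genes known as FOXO targets was counted in the same way, of which 29 were matched to an identifier in each line. In MDA-MB-231, 18 of 25 tested rose, 3 fell and 4 did not pass, and the median log2FC was 0.97. Over all genes tested there, 27.2% were called higher and 26.8% lower. With the replicate number as a block 5 of these targets fell. *FBXO32* (atrogin-1), a ubiquitin ligase that FOXO proteins induce in wasting muscle, rose from 45.8 ± 2.29 to 225 ± 22.2 CPM (2.29, adjusted p = 6.96e-09), and *PPARGC1A*, a coactivator for mitochondrial genes, from 1.96 ± 0.491 to 14.7 ± 0.382 CPM (2.90, adjusted p = 1.93e-07). Against these, *CDKN1A*, which encodes the cell cycle inhibitor p21 and is also a p53 target, fell from 246 ± 4.93 to 38.5 ± 2.41 CPM (-2.67, adjusted p = 1.08e-09). *GADD45A*, a DNA damage gene, fell from 117 ± 0.674 to 84.3 ± 2.72 CPM (-0.47, adjusted p = 0.000178).

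In 4T1, 10 of 23 of these targets rose, 9 fell and 4 did not pass, with a median of -0.04. The shares over all genes tested in 4T1 were 29.5% higher and 29.4% lower. *Gadd45b*, a stress gene related to *Gadd45a*, rose from 6.32 ± 0.751 to 36.3 ± 2.0 CPM (2.52, adjusted p = 5.02e-10). *Cat*, catalase, rose from 30.4 ± 2.50 to 81.5 ± 2.81 CPM (1.42, adjusted p = 5.29e-09). *Cdkn1a* fell from 163 ± 19.1 to 93.1 ± 3.73 CPM (-0.81, adjusted p = 1.82e-06) and *Bcl6*, a transcriptional repressor, from 90.1 ± 8.43 to 53.0 ± 5.07 CPM (-0.76, adjusted p = 6.4e-06).

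Of the 22 targets in this list with a value in both lines, 13 had a lower log2FC in 4T1, 3 a higher one and 6 did not pass, with a median difference of -0.87. Over all genes tested in both lines, 25.5% were called lower in 4T1 and 24.2% higher. *CAT* rose in both lines (1.34 and 1.42), with a difference of 0.01 in the joint fit (SE 0.13, adjusted p = 1), and *FBXO32* and *PPARGC1A* responded less in 4T1, by -1.93 (adjusted p = 2.24e-09) and -2.10 (adjusted p = 2.66e-06). *CDKN1A* fell less in 4T1, with a difference of 1.79 (adjusted p = 1.2e-09), and *GADD45B* rose more there, by 1.56 (adjusted p = 4.01e-08).

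**Figure D3:**
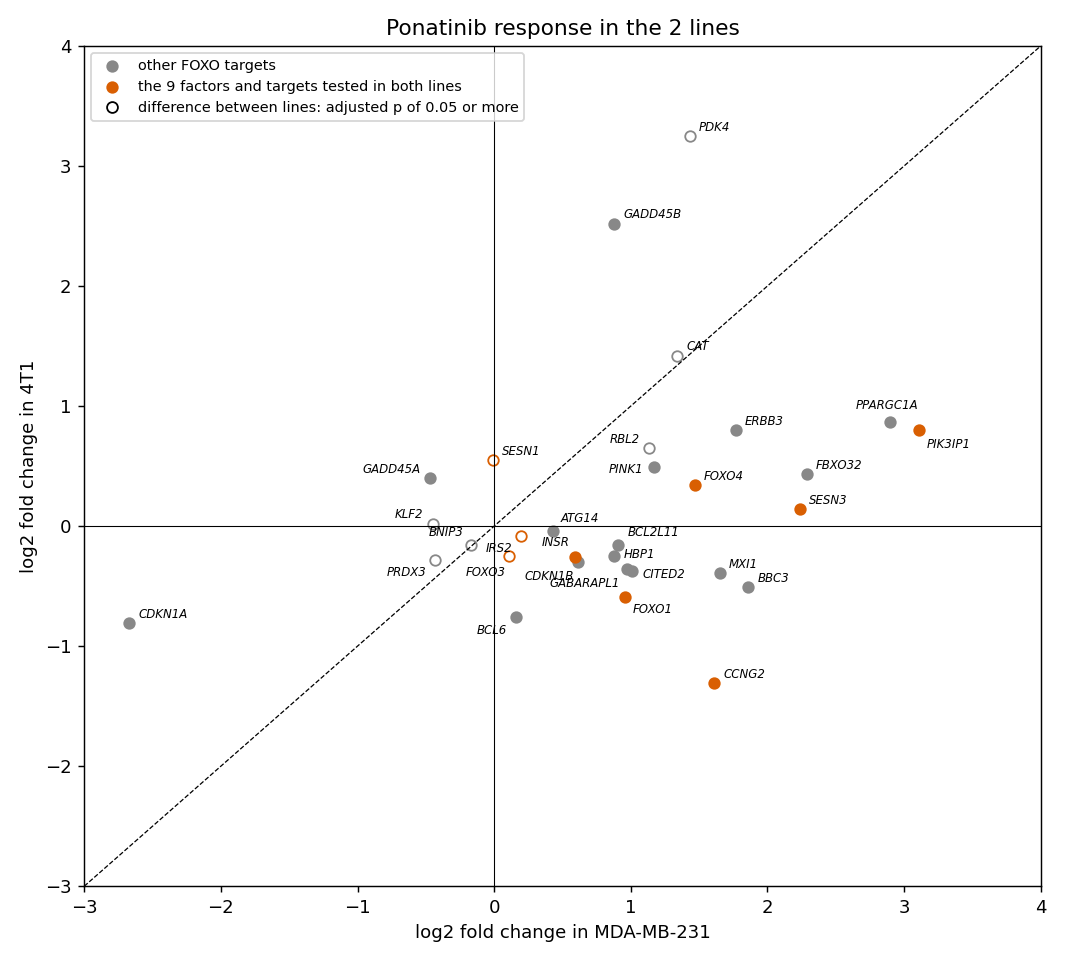
Log2 fold change with ponatinib in MDA-MB-231 (horizontal) against that in 4T1 (vertical) for the 9 factors and targets tested in both lines (orange) and other FOXO targets (grey), with hollow points where the difference between lines had an adjusted p of 0.05 or more and a dashed line of equal response. Most points lie right of 0 and below the dashed line, with *CCNG2* (1.61 and -1.31) the lowest and *GADD45B* (0.88 and 2.52) above it.

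The genes of the pathway that controls FOXO proteins were counted next. Of 24 tested genes of the PI3K-AKT-mTOR core, 3 rose and 8 fell in MDA-MB-231 (median -0.11), and 5 rose and 10 fell in 4T1 (median -0.17). With scaling by total counts these were 5 and 4 in MDA-MB-231 and 8 rises in 4T1. With TMM scaling, 27.2% of all genes tested in MDA-MB-231 were called higher and 26.8% lower, and in 4T1 29.5% and 29.4%. *SGK1*, a kinase related to AKT that also phosphorylates FOXO3, fell in both lines, from 34.1 ± 5.47 to 12.5 ± 2.06 CPM in MDA-MB-231 (-1.45, adjusted p = 8.33e-06) and from 102 ± 2.49 to 24.6 ± 1.5 CPM in 4T1 (-2.05, adjusted p = 7.34e-11). In MDA-MB-231 *TSC1*, a brake on mTORC1, and *PIK3R3*, a regulatory subunit of PI3K, rose (0.71, adjusted p = 4.68e-05, and 0.70, adjusted p = 0.00209), and *PHLPP2*, a phosphatase that acts on AKT, fell (-0.78, adjusted p = 0.00116). In 4T1 *Pik3r2*, another regulatory subunit, rose from 168 ± 15 to 323 ± 9.09 CPM (0.94, adjusted p = 1.7e-07), *Akt1* rose (0.44, adjusted p = 0.000147), and *Inpp4b*, a lipid phosphatase that limits AKT, fell (-1.17, adjusted p = 1.3e-05). The identifier of human *PIK3R2* held 3 counts with DMSO and 0 with ponatinib, so it had no test in MDA-MB-231, as *Sgk3* had none in 4T1. Whether reads of *PIK3R2* were counted under an identifier with no name was not tested.

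Of 17 regulators that act on FOXO proteins, 11 fell and none rose in MDA-MB-231, and 14 fell and none rose in 4T1, with a median log2FC of -0.48 in each. Over all genes tested 26.8% and 29.4% were called lower. The other 6 and 3 regulators did not pass by edgeR, with log2FC values in the human line between -0.20 and 0.41 and in the mouse line between -0.55 and 0.12. At an unadjusted p under 0.05, 1 was higher in MDA-MB-231 (*EP300*, a coactivator, log2FC 0.41, adjusted p = 0.07, named after its value was seen) and 0 in 4T1, where DESeq2 also called 0. *EP300* passed by DESeq2, with no filter and with the replicate block as the 1 gene of the list called higher in MDA-MB-231, and 2 genes were called higher without ponatinib replicate 1 and without both libraries numbered 1. In 4T1 1 was called higher with total counts. *YWHAG*, a 14-3-3 protein, fell from 128 ± 14.6 to 75.6 ± 8.21 CPM in MDA-MB-231 (-0.76, adjusted p = 7.87e-05) and from 785 ± 49.0 to 436 ± 25.8 CPM in 4T1 (-0.85, adjusted p = 5.27e-07). *YWHAH*, also a 14-3-3 protein, fell from 188 ± 9.48 to 99.9 ± 1.64 CPM in MDA-MB-231 (-0.91, adjusted p = 1.37e-06), and *Sirt1*, a deacetylase of FOXO proteins, fell in 4T1 from 27.0 ± 5.32 to 13.1 ± 2.07 CPM (-1.04, adjusted p = 3.7e-05).

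*TXNIP* is also under the control of the glucose-sensing Mondo factors, and its protein binds thioredoxin. Of the Mondo and thioredoxin genes, 2 of 6 rose and 2 fell in MDA-MB-231, where *TXN*, thioredoxin, fell (-0.52, adjusted p = 0.000818) as did *MLX*, the partner of the Mondo factors (-0.40, adjusted p = 0.00151). The 2 rises in MDA-MB-231 lay outside the rule for named genes. They were *MLXIPL*, a Mondo factor, from 28 to 114 counts summed over 3 libraries (1.91, adjusted p = 0.0025), and *TXNRD1* (0.32, adjusted p = 0.0346), whose groups overlapped. The count of rises was 1 without DMSO replicate 3 or without ponatinib replicate 2. In 4T1, 1 of 5 rose and 3 fell. There *Txn1* was higher (0.31, adjusted p = 0.00223). *Mlxip*, which encodes MondoA, was lower (-0.48, adjusted p = 0.000172), as was *Txnrd1*, thioredoxin reductase (-0.33, adjusted p = 0.00158). For comparison, 27.2% of every gene tested in the human line rose by edgeR, while 26.8% fell. The mouse line had 29.5% rising against 29.4% falling.

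**Figure D4:**
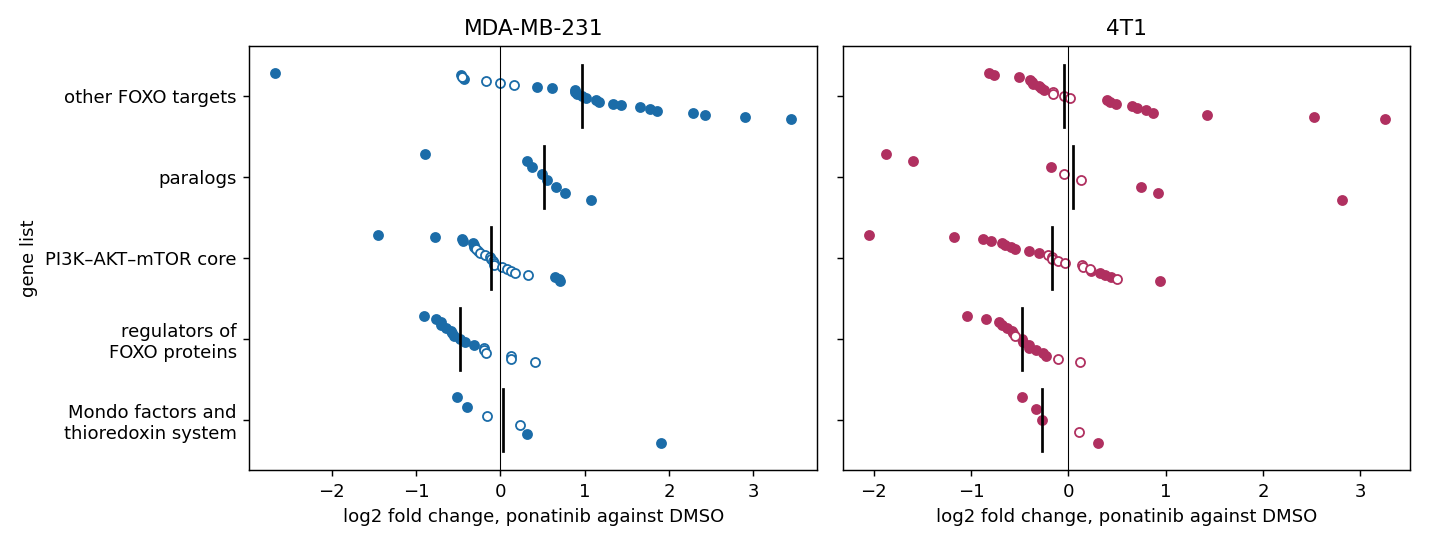
Log2 fold change with ponatinib of each tested gene in the 5 related lists (points, filled for an adjusted p under 0.05) with the median of each list (vertical bars), with MDA-MB-231 in the left panel and 4T1 in the right. The medians of other FOXO targets are 0.97 and -0.04, and those of regulators of FOXO proteins are -0.48 in both lines.

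Of the 9 factors and targets tested in both lines, *PIK3IP1* had the highest mean absolute log2FC over both lines, 1.96. Among 9841 genes with the same symbol in both species, the patterns most like it over the 12 libraries were those of *SLC29A3*, *PIK3C2B* and *GPNMB*, by the root mean square difference of log2 CPM centred within each line (0.21, 0.23 and 0.27). *SLC29A3*, a lysosomal nucleoside transporter, had a log2FC of 2.90 in the human and 1.05 in the mouse line. *PIK3C2B*, a class II PI3K, had 3.11 and 0.74, and *GPNMB*, a lysosomal and melanosomal glycoprotein, 3.07 and 1.33. These are descriptions over libraries that share the treatment.

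The libraries held 15012884 to 18951493 counts, and no replicate was a copy of another. The label of an epithelial cell was checked against markers. In 4T1 the keratins *Krt8*, *Krt18* and *Krt19* (2040 to 3250 CPM with DMSO) and *Cdh1* (830 ± 57.7 CPM) were high and *Epcam* low (2.86 ± 0.0668 CPM). In MDA-MB-231 the keratins were present (117 to 890 CPM) and *EPCAM* low (6.44 ± 0.711 CPM). *CDH1*, E-cadherin, had 0 counts there with DMSO and 1 with ponatinib. *VIM*, vimentin, a mesenchymal marker, had 1290 ± 110 CPM with DMSO, and *Vim* was also high in 4T1, at 3260 ± 341 CPM. Leukocyte and endothelial markers, *PTPRC* and *PECAM1*, were at 0 in MDA-MB-231, and in 4T1 *Ptprc* had 6 and 2 counts and *Pecam1* 23 and 17 counts summed over the DMSO and the ponatinib libraries. With ponatinib *VIM* fell (-0.66, adjusted p = 0.000236) while *KRT8* (0.88, adjusted p = 2.94e-05) and *EPCAM* (0.41, adjusted p = 0.0328) rose in MDA-MB-231. *KRT18* (0.12, adjusted p = 0.419 by edgeR) and *KRT19* (-0.03, adjusted p = 0.842) did not pass there, and *CDH1* was not tested. In 4T1 *Krt8* rose (0.24, adjusted p = 0.0298) and *Krt18* fell (-0.54, adjusted p = 0.000125). *Krt19* (0.21), *Cdh1* (0.13), *Epcam* (-0.25) and *Vim* (0.15) did not pass there (adjusted p from 0.0628 to 0.338 by edgeR). Of the breast receptors in MDA-MB-231, *ERBB2* rose from 98.1 ± 7.46 to 172 ± 5.18 CPM (0.81, adjusted p = 5.7e-06), and *ESR1* and *PGR* were too scarce to test. *Esr1* rose in 4T1 from 3.41 ± 0.668 to 6.33 ± 1.05 CPM (0.89, adjusted p = 0.00119), while *Erbb2* did not pass (0.06, adjusted p = 0.625) and *Pgr* had 0 counts. *Pdgfra*, a fibroblast marker, fell from 2.86 ± 1.08 to 1.56 ± 0.244 CPM in 4T1 (-0.88, adjusted p = 0.0173), and the part of these shifts in the values above was not tested. In bulk RNA, fewer cells of a kind and less RNA per cell cannot be told apart.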

How the data were processed

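RNA-seq libraries of MDA-MB-231 and 4T1 were assigned to groups from their titles, 12 libraries in 4 groups of 3. After removing adapters and poly-N reads, the authors aligned the reads with HISAT2 (hg38 and GRCm39) and used HTSeq to count them by gene, and the deposited values are these raw counts, whole numbers without normalization. Tool versions, the annotation and the strand setting are not given in the sources used here. Identifiers were named with GENCODE v44 (81.9% of the human ones, with 99.3% of the counts) and GENCODE vM39 (91.1% of the mouse ones, with 99.8% of the counts), which also gave positions and exon lengths.

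Ponatinib and DMSO were compared within each line by the quasi-likelihood test of edgeR 4.0.16 in R 4.3.3, after its filterByExpr step and TMM scaling, with p-values adjusted by Benjamini-Hochberg over all genes tested. Responses were compared between lines by an interaction term. CPM used TMM-scaled totals, and log2 CPM a prior count of 2. Total counts of 15012884 to 18951493 per library set the precision of scarce genes. The steps were also run on simulated counts in which no library stood apart, which checks the steps and not the calls reported here.

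The 10 genes and the related lists were chosen with earlier results of these data known, so no list was tested as a set. Named genes are the 10, and of each other list in each line up to 2 rises and 2 falls with the largest log2 fold changes among calls (adjusted p-value under 0.05) whose higher group averaged 5 CPM or more and whose groups did not overlap. Markers, genes that overlap one of the 10, annotated FOXO copies and the 3 patterns most like that of 1 gene were also named.

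Same-numbered DMSO and ponatinib libraries deviated together (correlations for MDA-MB-231 of 0.498, 0.175 and 0.218, and for 4T1 of 0.278, 0.185 and 0.153). Each exceeds 0.1, so the numbers may pair the libraries, which rests on the correlations alone, because no label says what a number marks. The p-values reported are from unpaired fits, and the pairing enters only where a replicate block is named. Alternatives were scaling by total counts or by DESeq2's size factors, a test by DESeq2 1.42.0, no filter or a minimum of 10 counts per library, a block for the replicate number, and each library left out in turn. Leaving out the libraries numbered 1 was added after seeing the data. Human promoters came from the RefSeq table (GRCh38.p14) and mouse windows from GRCm39. Of the human identifiers left without a name, none was assigned to a gene by other means.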

Additional observations from a re-analysis of the deposited data

Results flagged for a closer look

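The response to ponatinib differed between the lines, by edgeR's test of the interaction, for 6 of the 9 factors and targets tested in both lines and for 20 of the related genes named in the text. Differences are on the log2 scale, 4T1 minus MDA-MB-231, with p-values adjusted over 12488 genes. Of the 9838 genes tested in both lines 49.6% were called. The related genes had been named for their fold changes within a line, and *EP300* after its value was seen. Their count of 20 therefore cannot be compared with that share. A lower or higher response means a lower or higher log2 fold change, also where both are falls. Single values within a group of 3 libraries were not tested for standing apart.

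Among the factors and targets, the response was lower in 4T1 for *CCNG2* (-2.99, adjusted p = 1.97e-11), *PIK3IP1* (-2.38, adjusted p = 7.5e-06), *SESN3* (-2.17, adjusted p = 2.37e-07), *FOXO1* (-1.62, adjusted p = 1.4e-07), *FOXO4* (-1.21, adjusted p = 1.57e-05) and *INSR* (-0.92, adjusted p = 6.42e-05). *CCNG2*, *FOXO1* and *INSR* rose in MDA-MB-231 and fell in 4T1, though the fall of *Insr* lost its call under several alternatives.

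Of the paralogs tested in both lines, 4 had a lower response in 4T1 and 1 a higher one. Those named in the text are *ARRDC3* (-2.33, adjusted p = 1.66e-08) and *SESN2* (-0.75, adjusted p = 2.42e-05) among the lower. The higher one is *FOXO6* (1.66, adjusted p = 0.000992). Of the other FOXO targets, 13 had a lower response in 4T1 and 3 a higher one. The lower ones named here are *PPARGC1A* (-2.10, adjusted p = 2.66e-06), *FBXO32* (-1.93, adjusted p = 2.24e-09) and *BCL6* (-0.99, adjusted p = 0.000153). Those with a higher response were *CDKN1A* (1.79, adjusted p = 1.2e-09), *GADD45B* (1.56, adjusted p = 4.01e-08) and *GADD45A* (0.80, adjusted p = 6.03e-06).

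In the PI3K-AKT-mTOR core, 11 genes had a lower response in 4T1 and 3 a higher one. The lower ones named in the text are *INPP4B* (-0.94, adjusted p = 0.000233), *PIK3R3* (-0.79, adjusted p = 0.0157), *SGK1* (-0.67, adjusted p = 0.00361) and *TSC1* (-0.65, adjusted p = 0.000236). *AKT1* (0.70, adjusted p = 8.34e-05) is named among the higher. The difference of *PIK3R3* did not pass without ponatinib replicate 2 of MDA-MB-231 (-0.63, adjusted p = 0.052), DMSO replicate 2 of 4T1 (-0.55, adjusted p = 0.105) or ponatinib replicate 3 of 4T1 (-0.62, adjusted p = 0.0731). Of the regulators of FOXO proteins, 5 had a lower response in 4T1 and 2 a higher one, and those named in the text are *SIRT1* (-1.24, adjusted p = 0.000182) and *EP300* (-0.81, adjusted p = 0.00585) among the lower and *YWHAH* (0.43, adjusted p = 0.00129) among the higher. Of the Mondo and thioredoxin genes, 3 had a lower response in 4T1 and 1 a higher one. *TXNRD1* (-0.73, adjusted p = 0.000482) and *MLXIP* (-0.40, adjusted p = 0.0061) were among the lower, and *MLX* was higher (0.44, adjusted p = 0.00689). *MLXIP* did not pass without ponatinib replicate 2 of 4T1 (-0.31, adjusted p = 0.0537).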

How the results depend on the processing

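The 6 rises in MDA-MB-231 and the 6 differences between lines that passed kept at least that number under each alternative run for them (6 to 8 for the differences). In 4T1 the calls of *Foxo3*, *Foxo4*, *Pik3ip1* and *Insr* rest on single libraries or on the scaling. Without both libraries numbered 1, added after seeing the data, 1 of the 10 genes was higher in 4T1, 2 regulators of FOXO proteins were higher in MDA-MB-231, and without all 4 the difference between lines passed for 7 of 9 genes, *FOXO3* included. With total counts 3 of the 10 genes were lower in 4T1 in place of 5. Leaving out 1 library gave 1 to 3 rises and 3 to 5 falls in 4T1, the fewest rises without DMSO replicate 1 and the fewest falls without ponatinib replicate 2 or 3. Total counts raised the all-gene median of MDA-MB-231 to 0.11 and that of 4T1 to 0.12, and the share of calls that were higher from 50.4% to 60.0% and from 50.1% to 62.3%. With them the PI3K-AKT-mTOR core had 5 higher and 4 lower genes in MDA-MB-231 and 8 higher in 4T1, and the regulators of FOXO proteins had 1 higher in 4T1. These regulators had 1 higher in MDA-MB-231 with DESeq2, with no filter and with the replicate block, and 0 to 2 when 1 library was left out. Mondo and thioredoxin genes had 1 to 2 higher in MDA-MB-231 with 1 library left out. With the replicate block, 5 other FOXO targets were lower in MDA-MB-231. The differences of *FOXO3* (-0.45), *IRS2* (-0.35) and *IRS1* (0.37, adjusted p = 0.0192) passed with it by edgeR. So did the rise of *EP300* in MDA-MB-231 (0.40, adjusted p = 0.000284). No other call changed with the block among the 10 genes and the related genes named by the rule in a line. Markers and genes named outside the rule, other than *EP300* and the 3 patterns most like *PIK3IP1*, were not refitted singly under any alternative. Signs turned, with no call, for *SESN1* in MDA-MB-231 (0.08 with total counts, 0.02 with the minimum of 10 counts, -0.20 to 0.20 with 1 library left out), *FOXO3* in MDA-MB-231 (-0.06 to 0.22 with 1 library left out), *Irs2* in 4T1 (0.04 with total counts) and the differences of *PHLPP2* (-0.03 to 0.22) and *CAT* (-0.07 to 0.11) with 1 library left out. The cause of these changes was not tested. Depth limits *Pik3ip1* in 4T1 (19 to 51 counts per library) and *SESN1* and *SESN3* in MDA-MB-231 (from 47 and 29 counts).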

Other observations

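Other genes of the lists changed at levels under 5 CPM, outside the rule for named genes, and were chosen here after their values were seen. In MDA-MB-231 *TRIM63* (MuRF1), a muscle ubiquitin ligase often measured with *FBXO32*, went from 20 to 239 counts summed over 3 libraries (log2 fold change 3.45, standard error 0.30, adjusted p = 2.45e-06 by edgeR). *TNFSF10*, which encodes the death ligand TRAIL, went from 35 to 204 counts (2.43, standard error 0.27, adjusted p = 1.68e-05). In 4T1 *Pdk4*, a kinase that blocks entry of pyruvate into mitochondria, went from 5 to 54 counts (3.25, standard error 0.54, adjusted p = 0.000135), and *Foxo6* from 32 to 242 counts (2.81, standard error 0.35, adjusted p = 9.19e-06). *Insrr*, a receptor related to the insulin receptor, went from 155 to 45 counts (-1.87, standard error 0.31, adjusted p = 0.000113). The difference of *PDK4* between lines did not pass (1.74, adjusted p = 0.0778).

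*FOXO3* and *SESN1* lie 299534 bases apart on human chromosome 6, and their mouse counterparts 273413 bases apart on chromosome 10. Their responses are given above gene by gene, and neither was called in MDA-MB-231, while in 4T1 *Foxo3* was called lower and *Sesn1* higher.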
